A study of Mus musculus with 7 samples.

Results

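DNA replication machinery genes are the 44 genes that encode the proteins which mark, open and copy replication origins. They were taken by gene symbol from a list that uses no measured value in its rule but was proposed with earlier results of these data known, and all 44 of 44 were found as 1 row each among the 24062 genes counted in whole spleens. Total RNA came from 3 enlarged spleens of mice with the genotype Vav1-iCre;Brca1F22-24/F22-24 and from 4 spleens of C57BL6 mice that are wild type for Brca1, all 2 to 3 months old. Vav1-iCre is a Cre recombinase driver active in the blood lineages, and the floxed allele spans Brca1 exons 22 to 24. Which cells of these spleens lost the exons was not tested. No further treatment, Cre control or shared allele is given in the labels for the wild-type mice. The recombinase, the Brca1 allele, the enlarged spleen and any strain difference go together with the mutant group and cannot be told apart.

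A cell prepares to copy its DNA in the G1 phase, when the origin recognition complex (ORC) binds origins and recruits Cdc6 and Cdt1 to load the MCM helicase, a step called licensing that geminin restrains by binding Cdt1. In S phase the kinase Cdc7 with its activator Dbf4 acts on MCM, Cdc45 and the GINS complex join it, and polymerases alpha, delta and epsilon copy the strands with the sliding clamp PCNA, its loader RFC and the single-strand binder RPA. Many of these genes are transcribed under E2F transcription factors as cells enter S phase, and in mouse spleen the dividing cells include red cell precursors and activated lymphocytes. In whole spleen RNA, fewer cells of a type and less RNA per cell cannot be told apart.

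Total counts per library ranged from 26889712 to 63612532. Counts of any 2 libraries differed by more than sampling noise. Brca1 itself, counted over the whole gene, stood at 67.6, 47.1 and 42.7 CPM (counts scaled to a common library size) in mutants 1 to 3 and at 46.2, 72.8, 15.7 and 20.2 CPM in wild types 1 to 4, and such a sum does not show whether exons 22 to 24 were lost. Spleen cell markers were checked from lists. Their counts are to be read against all genes tested, of which 28.5% were called higher and 28.9% lower. Of 8 mature B cell markers 8 fell in the mutant, with summed levels of 40.2 to 221 CPM against 4147 to 5536 CPM in wild type. Of 10 immature T cell markers 9 rose and 1 fell, with summed levels of 1898 to 3800 CPM against 360 to 444 CPM. The 12 erythroid markers overlapped between groups, at 4712 to 27447 CPM in the mutant and 3317 to 44927 CPM in wild type. Of 5 B cell precursor markers the 2 that could be tested, Ebf1 and Cd79a (also on the mature B list), fell, Vpreb2 had 0 counts in every library, and Igll1 and Vpreb1 were too low to test. The summed level of that list was 3.74 to 42.0 CPM in the mutant and 762 to 1274 CPM in wild type. That sum rests mainly on Ebf1 and Cd79a, so it does not describe B cell precursors apart from mature B cells. Of 6 germinal centre B cell markers 4 fell and 1 rose (41.1 to 61.2 CPM summed against 89.5 to 125 CPM). Of 4 megakaryocyte markers 3 fell (3.65 to 32.8 CPM against 71.7 to 103 CPM). Of 5 spleen macrophage markers 1 fell, no more than the share of all genes (251 to 1396 CPM against 1306 to 1693 CPM). The part of these cell types in the results on replication genes was not tested.

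Replication genes stood higher in the Brca1 mutant spleens almost throughout. Of the 44 genes 41 rose, 0 fell and 3 (Orc1, Cdc6 and Mcm9) did not pass, by edgeR's quasi-likelihood test at a Benjamini-Hochberg adjusted p under 0.05 over all 15188 genes tested, of which 57.4% were called, 28.5% higher and 28.9% lower. With library size alone as the scaling, the median over all genes shifted to -0.26 and 38.1% of all calls were higher rather than 49.7%. With that scaling 40 replication genes rose, beside 20.8% of all genes tested. The fitted fold change was above 0 for all 44. Every replication gene passed the filter on low counts, and the lowest count of any of them in any library was 162. The lowest mutant library lay above the highest wild-type library for 43 of 44 genes, where 29.2% of all genes tested showed that separation, and the reverse was true of 0 replication genes and 32.6% of all genes. At least 2-fold higher calls were made for 35 of 44, beside 17.2% of all genes. The median log2 fold change (mutant minus wild type) was 1.65 for the replication genes and -0.02 for all genes tested, and 7.58% of all genes tested had a fold change above that median of 1.65. Counts on the 44 genes made up 0.652%, 0.751% and 0.648% of all counts in mutants 1 to 3, and 0.310%, 0.322%, 0.189% and 0.227% in wild types 1 to 4.

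**Figure D1:**
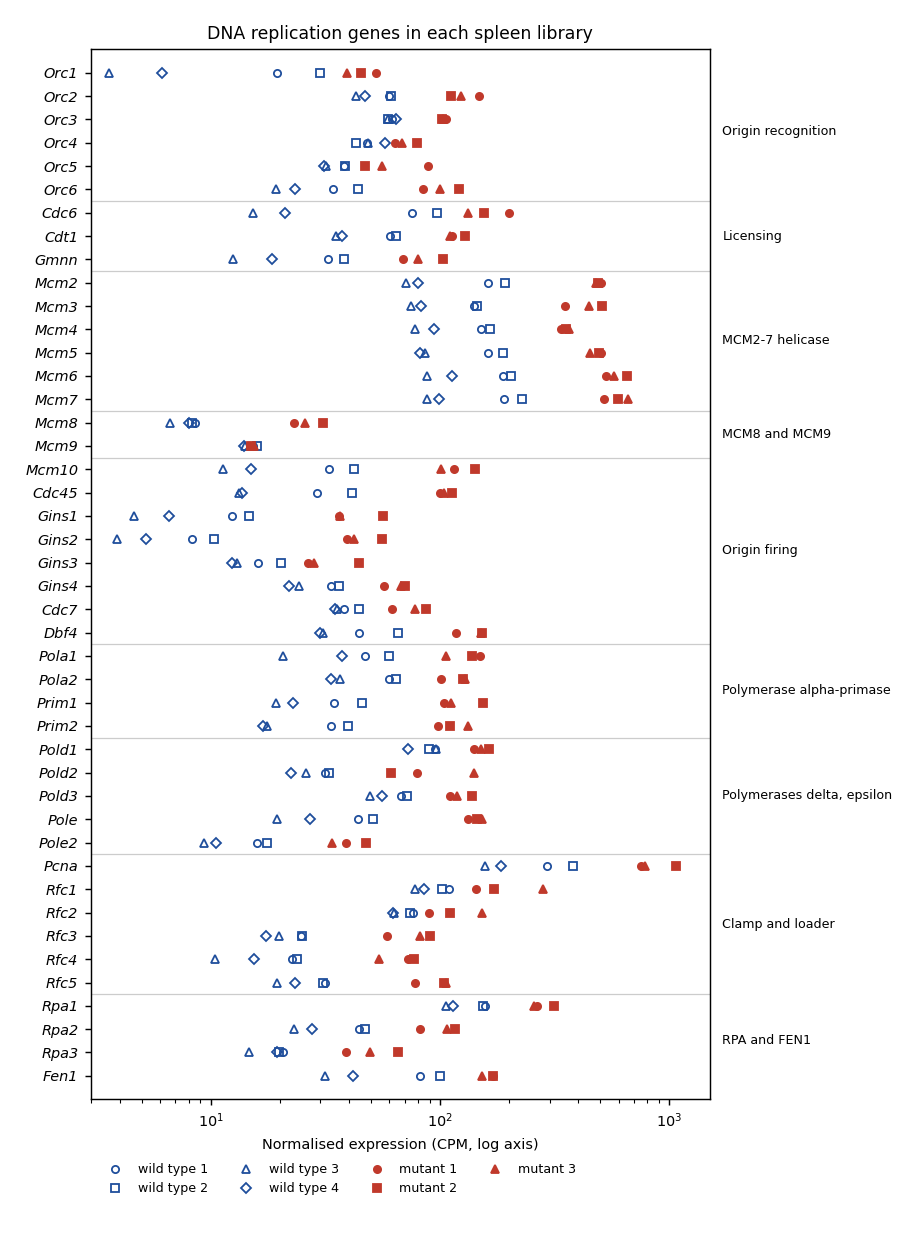
Normalised expression (CPM, log axis) of each of the 44 replication genes in every library, grouped by role; filled symbols are the 3 mutants and open symbols the 4 wild types. The mutant symbols lie right of all wild-type symbols for 43 genes, and only Mcm9 overlaps.

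**Figure D2:**
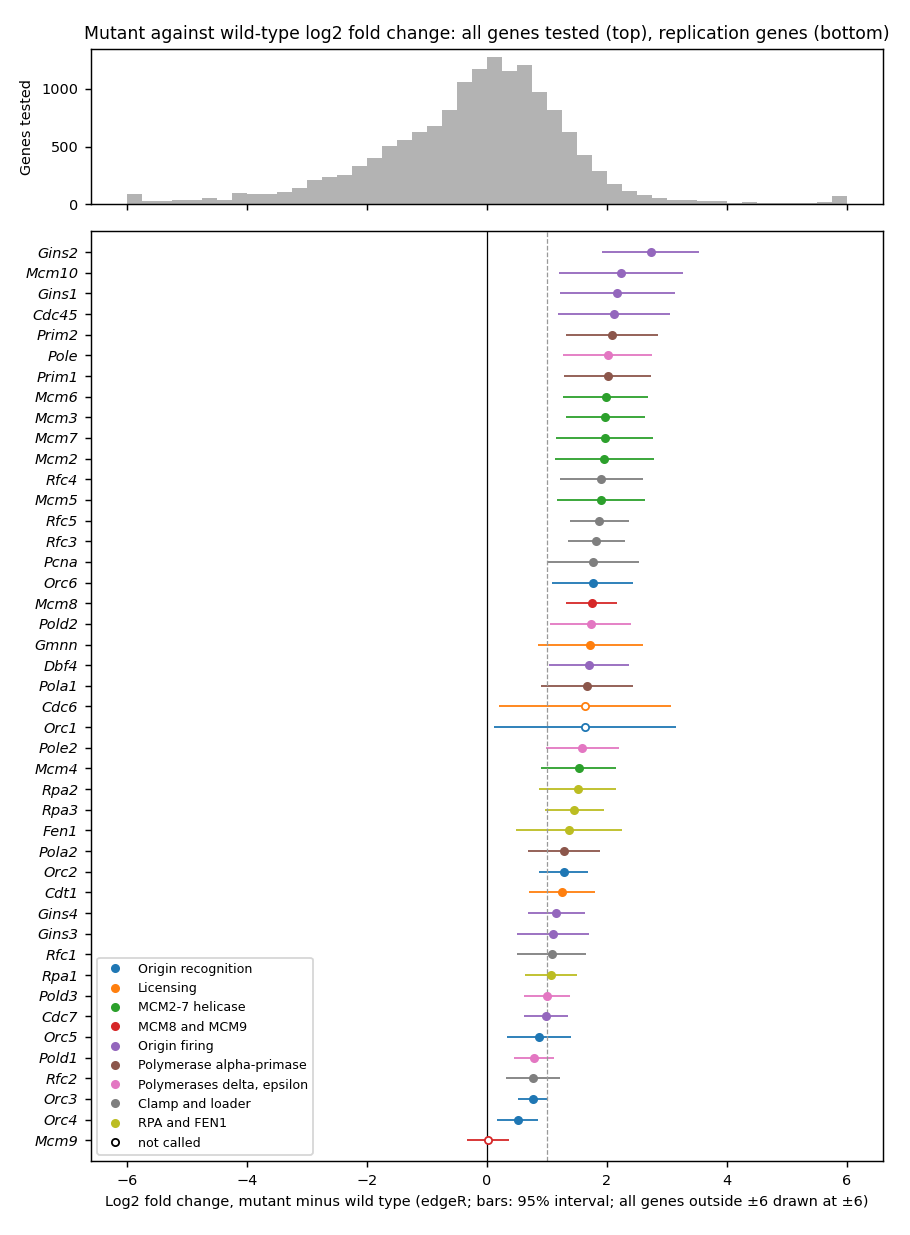
Top, histogram of log2 fold changes of the 15188 genes tested. Bottom, log2 fold change (mutant minus wild type) of each replication gene with its 95% interval, where open symbols mark genes that were not called and the dashed line marks a 2-fold increase. Gins2 is at the top at 2.73 and Mcm9 at the bottom at 0.03.

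Promoter sequence is a feature the list did not use. RefSeq start sites (build GRCm38.p6, the mm10 coordinates of the counts) were matched for 36 of the 44 genes. Windows ran from 250 bases before to 50 after the start nearest the counted gene's 5′ end. That start lay 482, 263 and 99 bases from the counted end for Mcm9, Cdc6 and Mcm3, and at most 49 bases for the others. A transcript of the gene held the 25 bases checked after the start for 33 of the 36. The 8-letter E2F-type motifs TTTCCCGC, TTTGGCGC, TTTCGCGC and TTTGCCGC, searched on both strands, occurred in 15 of 36 replication gene windows (41.7%) and in 3.86% of the windows of 11171 genes tested. CCAAT occurred in 22 of 36 (61.1%) against 38.3%, and TTTGAA or TTCGAA, the CHR-type letters of many mitotic promoters, in 7 of 36 (19.4%) against 14.03%. The median log2 fold change of replication genes was 1.64 with an E2F-type match and 1.51 without. Over all genes with a window, replication genes included, those medians were 0.52 and -0.03. A match is a description of letters and not a site, and no test was made.

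The 170 bases before the start are shown for 5 genes, 5′ to 3′ on the gene's strand with E2F-type matches in capitals. These genes span the range of wild-type spread and match number, but not of level. The genes and the window were chosen after their matches were seen, so they do not show how common a match is. Mcm6 and Mcm5, helicase subunits, each hold a pair of overlapping matches. Orc1 had the widest spread among wild-type spleens, Orc3 the narrowest, and Pcna had the highest level per length and holds none of these letters.
Mcm6 (chr1:128359706-128359875, minus strand): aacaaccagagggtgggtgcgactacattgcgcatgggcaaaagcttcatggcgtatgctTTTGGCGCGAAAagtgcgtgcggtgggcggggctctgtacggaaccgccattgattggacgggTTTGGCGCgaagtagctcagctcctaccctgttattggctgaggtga
Mcm5 (chr8:75109339-75109508, plus strand): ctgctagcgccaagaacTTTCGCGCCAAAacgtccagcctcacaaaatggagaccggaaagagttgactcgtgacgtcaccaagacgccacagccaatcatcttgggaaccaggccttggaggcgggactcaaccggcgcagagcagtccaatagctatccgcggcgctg
Orc1 (chr4:108579284-108579453, plus strand): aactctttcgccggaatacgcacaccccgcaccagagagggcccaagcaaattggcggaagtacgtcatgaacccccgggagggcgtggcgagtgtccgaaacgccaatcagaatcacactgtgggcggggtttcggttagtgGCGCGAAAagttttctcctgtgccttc
Orc3 (chr4:34614943-34615112, minus strand): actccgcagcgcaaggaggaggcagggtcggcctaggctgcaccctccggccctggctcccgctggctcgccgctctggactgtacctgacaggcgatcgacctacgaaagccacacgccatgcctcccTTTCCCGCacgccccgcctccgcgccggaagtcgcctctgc
Pcna (chr2:132253181-132253350, minus strand): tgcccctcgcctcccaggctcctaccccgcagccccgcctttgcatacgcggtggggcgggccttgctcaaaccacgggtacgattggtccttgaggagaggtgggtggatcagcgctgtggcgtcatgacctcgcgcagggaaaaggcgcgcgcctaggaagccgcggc
In Mcm6 the matches began 110, 106 and 47 bases before the start and in Mcm5 153 and 149 bases before it. The single matches of Orc1 and Orc3 began 27 and 41 bases before the start.

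Among the ORC subunits, which mark origins, 5 of 6 rose, with a median log2 fold change of 1.08, and their increases ranged widely. Orc2 (chromosome 1, 58462771 to 58505109, minus strand, mm10) stood at 148, 112 and 124 CPM in mutants 1 to 3 and at 59.8, 61.0, 43.2 and 46.9 CPM in wild types 1 to 4. The groups did not overlap, and Orc2 rose 2.43-fold (log2 1.28, SE 0.17, adjusted p = 8.07e-04, edgeR). Orc6, the subunit least tightly held in the complex, rose most among those called, by 1.76 (SE 0.29) on the log2 scale. Orc3, Orc4 and Orc5, core subunits, rose by 0.76 (SE 0.10), 0.51 (SE 0.15) and 0.87 (SE 0.23). Orc3 was nearly level within each group, at 106, 102 and 103 CPM in mutant spleens against 61.9, 59.4, 59.0 and 64.3 CPM in wild type. Orc4 lay closest to overlap, its lowest mutant at 63.5 CPM and its highest wild type at 57.5 CPM, and with 1 library left out it lost its call without mutant 2 or without wild type 1, 2 or 3 (adjusted p = 0.0528 to 0.0615, edgeR). With library size alone as the scaling, Orc4 stood at 0.26 (adjusted p = 0.288, edgeR, range 0.00796 to 0.288 over its alternatives). The spans of Orc3 and Orc4 overlap the antisense genes Akirin2 and Acvr2a (50.3 and 9.86 CPM on average). How reads from bases shared there were counted is uncertain where strand was not used.

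Orc1, the ORC subunit whose level follows the cell cycle, stood at 52.7, 45.0 and 39.3 CPM in mutant spleens against 19.3, 30.0, 3.58 and 6.14 CPM in wild type. All mutants were above all wild types, yet the wild-type spleens differed among themselves by 8.37-fold, and Orc1 did not pass (log2 1.64, SE 0.66, adjusted p = 0.0640, edgeR). Cdc6, the ATPase that brings MCM to ORC, had the same order of libraries, at 199, 155 and 132 CPM in mutant spleens against 75.3, 96.9, 15.3 and 21.0 CPM in wild type (log2 1.64, SE 0.62, adjusted p = 0.0529, edgeR). Both passed with wild type 2 left out, Orc1 at 2.25 and Cdc6 at 2.13, and without wild types 1 and 2 together they stood at 3.23 and 3.16 (adjusted p = 0.00444 and 0.00401, edgeR, against ranges of 0.00444 to 0.137 and 0.00401 to 0.114 over their alternatives). Without wild types 3 and 4 together Orc1 and Cdc6 also passed, at smaller changes of 0.98 and 1.01 (adjusted p = 0.0426 and 0.0313, edgeR). DESeq2, limma-voom and limma on log2 CPM also called both, and Cdc6 passed with RLE factors and with globin genes removed.

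The licensing factor Cdt1 and its inhibitor geminin (Gmnn) both rose. Cdt1 (chromosome 8, 122568015 to 122573130, plus strand) stood at 113, 128 and 111 CPM in mutant spleens against 60.3, 64.0, 35.1 and 37.4 CPM in wild type, a 2.38-fold increase (log2 1.25, SE 0.24, adjusted p = 0.00334, edgeR). Gmnn stood at 68.7, 102 and 80.3 CPM in mutant spleens against 32.5, 38.2, 12.5 and 18.5 CPM in wild type, a 3.30-fold increase (log2 1.72, SE 0.38, adjusted p = 0.00604, edgeR). The ratio of Cdt1 to Gmnn CPM within a library was 1.64, 1.25 and 1.38 in mutant spleens against 1.86, 1.68, 2.82 and 2.02 in wild type, so every mutant had less Cdt1 per Gmnn than every wild type. The log2 difference in that ratio was -0.54, with an exact two-sided permutation p = 0.0571 and 0.152 after adjustment over 8 ratios. With 3 against 4 libraries 0.0571 is the smallest p this test can give. Cdc6 relative to Gmnn overlapped between groups (log2 difference 0.19, exact permutation p = 0.743, adjusted 0.743).

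The core helicase genes Mcm2 to Mcm7 moved as a block. All 6 of 6 rose, at least 2-fold each, and 5 of them lay between 1.90 and 1.98 on the log2 scale. Mcm3 (chromosome 1, 20803014 to 20820213, minus strand) stood at 350.5, 506 and 444 CPM in mutant spleens against 140.3, 145, 74.7 and 82.2 CPM in wild type (3.92-fold, log2 1.97, SE 0.28, adjusted p = 0.00100, edgeR). Mcm2 stood at 502, 489 and 480.0 CPM in mutant spleens against 162, 191, 70.9 and 79.9 CPM in wild type (3.89-fold, log2 1.96, SE 0.36, adjusted p = 0.00274, edgeR). Mutant spleens were close to each other for Mcm2 while wild types 1 and 2 held over 2 times the level of wild types 3 and 4. Mcm4 had the smallest change of the core, 2.89-fold (log2 1.53, SE 0.27). Mcm7 overlaps the Mir25, Mir93 and Mir106b genes in the counted spans, which were under 1 CPM on average.

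Per kilobase of exon, the scale on which genes can be compared, Pcna was the most abundant replication transcript in both groups, at 571 ± 115 CPM per kb in the mutant (SD, n = 3) and 167 ± 68.0 in wild type (SD, n = 4). Mcm7 was next at 199 ± 23.4 CPM per kb in the mutant and 51.0 ± 23.0 in wild type. Mcm2, Mcm3, Mcm5 and Mcm6 followed in the mutant at 145 ± 3.27, 143 ± 25.8, 143 ± 8.19 and 134 ± 14.9 CPM per kb. Mcm4 was lowest of the core at 98.02 ± 3.92 CPM per kb in the mutant and 33.9 ± 11.8 in wild type, where it lay among the others. The highest core subunit exceeded the lowest 2.03-fold in the mutant and 1.50-fold in wild type, by group means. Mcm9 was the lowest replication gene in the mutant at 3.10 ± 0.0620 CPM per kb, and Gins2 the lowest in wild type at 1.77 ± 0.745.

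Mcm8 and Mcm9 encode a helicase pair outside the core that works in homologous recombination, and the 2 genes differed. Mcm8 (chromosome 2, 132816141 to 132844188, plus strand) stood at 23.0, 30.7 and 25.6 CPM in mutant spleens against 8.55, 8.29, 6.62 and 8.01 CPM in wild type, and rose 3.36-fold (log2 1.75, SE 0.18, adjusted p = 3.47e-04, edgeR). Mcm9 (chromosome 10, 53537324 to 53630439, minus strand) stood at 14.8, 15.02 and 15.4 CPM in mutant spleens against 15.3, 15.9, 14.1 and 13.98 CPM in wild type. The Mcm9 groups overlapped, with a log2 fold change of 0.03 (95% interval -0.32 to 0.38, adjusted p = 0.896, edgeR), and its sign turned with library size alone (-0.22) and without wild type 3 or wild type 4 (-0.01 each). Asf1a, a histone chaperone gene on the opposite strand, overlaps the Mcm9 span, and how reads from shared bases were counted is uncertain where strand was not used. The ratio of Mcm2 to Mcm8 was 21.8, 15.9 and 18.7 in mutant spleens against 18.9, 23.0, 10.7 and 9.97 in wild type (log2 difference 0.35, exact permutation p = 0.514, adjusted 0.686).

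Genes that turn a loaded helicase into a moving fork rose in 8 of 8 cases, with a median log2 fold change of 1.91, and held the 4 largest increases of the whole list. Gins2, a GINS subunit (chromosome 8, 120581266 to 120589075, minus strand), stood at 39.4, 55.9 and 42.0 CPM in mutant spleens against 8.27, 10.3, 3.89 and 5.20 CPM in wild type, 6.64-fold higher (log2 2.73, SE 0.35, adjusted p = 6.16e-04, edgeR). The lowest mutant was 3.82 times the highest wild type, the widest gap of the 44 genes. Mcm10, which helps activate the helicase, rose by 2.24 (SE 0.45), Gins1 by 2.18 (SE 0.41) and Cdc45, the helicase cofactor, by 2.12 (SE 0.40). The other GINS subunits changed less, Gins4 by 1.16 (SE 0.21) and Gins3 by 1.10 (SE 0.26). Gins3 stood at 26.6, 44.3 and 28.1 CPM in mutant spleens against 15.98, 20.2, 12.9 and 12.4 CPM in wild type, with mutant 2 well above the others. Gins2 overlaps the antisense gene Gse1 in the counted spans, and its separate level is uncertain where strand was not used.

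The origin-firing kinase Cdc7 rose 1.98-fold (log2 0.98, SE 0.16) and its activator Dbf4 3.27-fold (log2 1.71, SE 0.29). The ratio of Dbf4 to Cdc7 CPM was 1.90, 1.75 and 1.92 in mutant spleens against 1.16, 1.49, 0.874 and 0.861 in wild type. All mutant ratios lay above all wild-type ratios (log2 difference 0.80, exact permutation p = 0.0571, adjusted 0.152).

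Polymerase alpha-primase, which lays down the first primer, rose in 4 of 4 subunits. Prim1, the catalytic primase subunit (chromosome 10, 128015215 to 128030030, plus strand), stood at 104, 154 and 112 CPM in mutant spleens against 34.3, 45.8, 19.3 and 22.9 CPM in wild type (4.04-fold, log2 2.01, SE 0.31, adjusted p = 0.00138, edgeR). Prim2, its partner, rose by 2.08 (SE 0.33), and the ratio of Prim1 to Prim2 overlapped between groups (log2 difference -0.10, exact permutation p = 0.629, adjusted 0.718). Pola1, the polymerase subunit, rose by 1.67 (SE 0.33). Pola2 stood at 101, 126 and 129 CPM in mutant spleens against 59.6, 64.3, 36.8 and 33.4 CPM in wild type (log2 1.29, SE 0.26, adjusted p = 0.00406, edgeR).

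Of polymerases delta and epsilon the 5 subunits on the replication list rose, but to different extents. Other subunits were placed on a separate list of fork accessory factors. There Pole3 rose (log2 1.61, SE 0.28), Pole4 was not called (log2 0.21, SE 0.21, adjusted p = 0.427, edgeR) and Pold4 fell (log2 -2.73, SE 0.16). Pole, the catalytic subunit of the leading-strand polymerase (chromosome 5, 110286319 to 110337453, plus strand), stood at 132, 144 and 152 CPM in mutant spleens against 43.8, 50.9, 19.4 and 27.1 CPM in wild type (4.04-fold, log2 2.02, SE 0.32, adjusted p = 0.00148, edgeR). Pold1, the catalytic subunit of polymerase delta, stood at 141, 163 and 151 CPM in mutant spleens against 94.9, 89.2, 95.7 and 72.1 CPM in wild type (1.72-fold, log2 0.78, SE 0.14, adjusted p = 0.00262, edgeR). The ratio of Pold1 to Pole CPM, not corrected for length, was 1.07, 1.13 and 0.992 in mutants 1 to 3 and 2.17, 1.75, 4.94 and 2.66 in wild types 1 to 4. That ratio did not overlap between groups (log2 difference -1.32, exact permutation p = 0.0571, adjusted 0.152). Among the accessory subunits Pole2 rose by 1.59 (SE 0.26), Pold3 by 1.00 (SE 0.17) and Pold2 by 1.73 (SE 0.29). Pold2 differed among the mutants, at 79.4, 61.0 and 140.1 CPM, against 22.4 to 32.7 CPM in wild type. The Pold2 span overlaps the antisense gene Aebp1 (19.3 CPM on average), and the counting of reads from shared bases is uncertain where strand was not used.

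The clamp Pcna and its loader rose in 6 of 6 genes, with a median of 1.80. Pcna (chromosome 2, 132249286 to 132253180, minus strand) stood at 750, 1068 and 783 CPM in mutant spleens against 292, 381, 156 and 183 CPM in wild type, 3.42-fold higher (log2 1.78, SE 0.33, adjusted p = 0.00280, edgeR). The small loader subunits Rfc3, Rfc4 and Rfc5 rose by 1.83 (SE 0.21), 1.91 (SE 0.30) and 1.87 (SE 0.21). Rfc3 stood at 58.5, 90.7 and 81.9 CPM in mutant spleens against 24.8, 24.9, 19.9 and 17.3 CPM in wild type (adjusted p = 4.27e-04, edgeR). Rfc2, the remaining small subunit, changed less, at 89.5, 111 and 152 CPM in mutant spleens against 76.4, 74.0, 62.8 and 62.0 CPM in wild type (log2 0.77, SE 0.20, adjusted p = 0.0112, edgeR). Rfc1, the large subunit, rose by 1.08 (SE 0.25), with mutant 3 at 280 CPM above mutants 1 and 2 at 143 and 171 CPM. The ratio of Rfc1 to Rfc4 overlapped between groups (log2 difference -0.93, exact permutation p = 0.171, adjusted 0.343), and Rfc4 overlaps the abundant antisense gene Eif4a2.

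All 3 RPA subunits, which coat single-stranded DNA, and Fen1, which trims lagging-strand flaps, rose. Rpa3 (chromosome 6, 8255936 to 8259141, minus strand) stood at 38.7, 65.8 and 49.5 CPM in mutant spleens against 20.5, 19.8, 14.7 and 19.4 CPM in wild type (2.75-fold, log2 1.46, SE 0.21, adjusted p = 0.00108, edgeR). Rpa1 and Rpa2 rose by 1.07 (SE 0.19) and 1.51 (SE 0.28). Fen1 stood at 170, 170.5 and 152 CPM in mutant spleens against 81.7, 99.9, 31.4 and 41.6 CPM in wild type (2.58-fold, log2 1.37, SE 0.38, adjusted p = 0.0170, edgeR). The mutants were close together and the wild types far apart, and Fen1 lost its call without mutant 2 (adjusted p = 0.0586, edgeR, the highest over its alternatives, of which DESeq2 gave the lowest, 0.00183).

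Wild-type spleens varied in these genes more than mutant spleens did. The median SD of log2 CPM over the replication genes was 0.50 among wild types and 0.23 among mutants, whereas over all genes tested it was 0.21 and 0.40. The wild-type SD exceeded the mutant SD for 35 of 44 genes. Wild types 1 and 2 were both above wild types 3 and 4 for 41 of 44 genes. Relative to the wild-type mean of log2 CPM, the median replication gene stood at 0.29, 0.47, -0.48 and -0.30 in wild types 1 to 4 and at 1.55, 1.89 and 1.68 in mutants 1 to 3.

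Erythroid markers had the same order in wild type, with list medians of 1.01, 2.06, -1.61 and -1.31 in wild types 1 to 4. In mutants 1 to 3 the erythroid medians were 2.17, -0.80 and -0.08, and mutant 1, the highest, had the lowest median for replication genes. Of the 12 erythroid markers 0 were called in either direction by edgeR, beside 57.4% of all genes tested. An unadjusted p under 0.05 was reached by 0 of them, and DESeq2, limma-voom and limma on log2 CPM called 0 as well. These markers spread widely within each group, so the lack of calls does not show that the groups had equal levels. Without wild types 1 and 2 edgeR called 2 of the 12, and 8 had an unadjusted p under 0.05. The part of erythroid cells in the replication gene levels was not tested. Without wild types 1 and 2 the median log2 fold change of the replication genes was 2.10, and 42 of 44 genes had a larger change than with all libraries. Leaving out wild types 3 and 4 instead gave many smaller changes, with Mcm2 at 1.57, Pcna at 1.46 and Fen1 at 0.95. Orc4 went the other way, at 0.72 against 0.51 with all libraries. In that fit 39 replication genes were called higher, beside 21.0% of all genes tested.

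**Figure D3:**
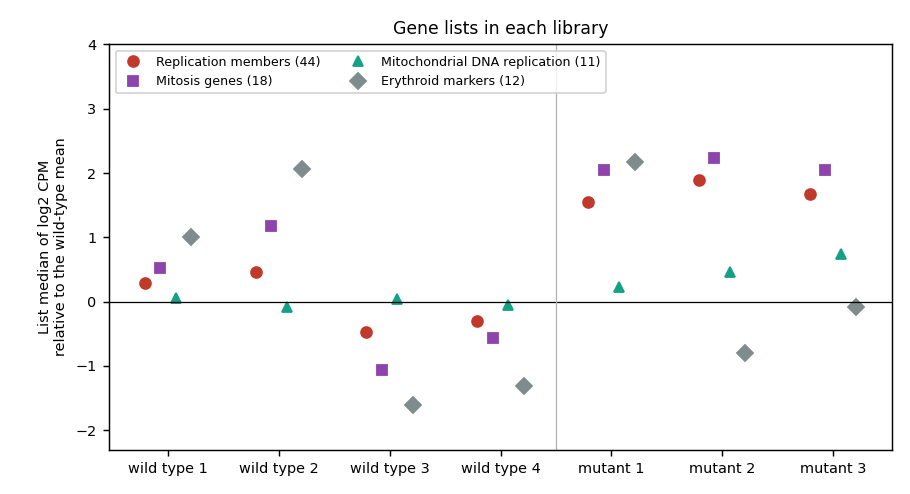
Median of log2 CPM relative to the wild-type mean for 4 gene lists in each of the 7 libraries. Replication genes lie at 1.55 to 1.89 in mutant spleens against -0.48 to 0.47 in wild type, while erythroid markers spread from -1.61 to 2.06 in wild type and from -0.80 to 2.17 in the mutants.

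Genes that varied little among wild-type spleens tended to change little. Over the 44 genes the log2 fold change and the wild-type SD of log2 CPM had a Pearson r of 0.60 and a Spearman rho of 0.72, given as a description, since the genes share libraries and both quantities use the wild-type values. Orc3, Orc4, Mcm9, Rfc2, Cdc7 and Orc5 had wild-type SDs of 0.06, 0.17, 0.09, 0.16, 0.16 and 0.16. Mcm8 went against the trend, with a wild-type SD of 0.17 and a log2 fold change of 1.75. Rfc3 (SD 0.25, log2 1.83), Pold2 (0.25, 1.73) and Rpa3 (0.22, 1.46) also varied little among wild types and changed more. Orc1 and Cdc6 went against the trend in the other direction, at SDs of 1.42 and 1.32, the widest of the list. The ratio of Orc1 to Orc2 CPM was 0.356, 0.402 and 0.317 in mutant spleens against 0.323, 0.492, 0.0831 and 0.131 in wild type, with overlap (log2 difference 0.81, exact permutation p = 0.457, adjusted 0.686).

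**Figure D4:**
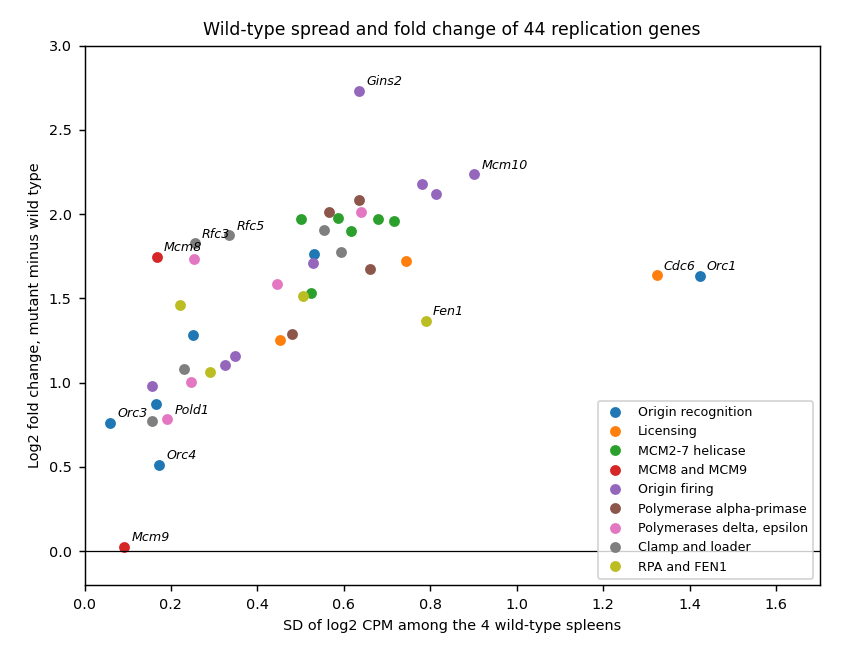
Log2 fold change of each replication gene (vertical axis) against the SD of its log2 CPM among the 4 wild-type spleens (horizontal axis), coloured by role. Mcm9 and Orc4 lie at the lower left, Gins2 is highest at 2.73, and Orc1 and Cdc6 lie far right at SDs of 1.42 and 1.32.

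Other genes of DNA replication and division were taken from lists by function, to be read against the 28.5% of all genes tested that were called higher and the 28.9% called lower. Of 26 fork accessory factors 23 rose and 1 fell, with a median log2 fold change of 1.61. Topbp1, which helps load Cdc45, rose by 1.50 (SE 0.18) and Mtbp, a firing factor, by 1.71 (SE 0.22). Pold4, the smallest subunit of polymerase delta, went against the list and against Pold1, Pold2 and Pold3. It fell from 84.8 CPM on average in wild type (range 75.6 to 98.1) to 12.8 CPM in the mutant (log2 -2.73, SE 0.16, adjusted p = 1.45e-04, edgeR).

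For nucleotide supply 9 of 12 genes rose and 2 fell, with a median of 1.82. Dut, which removes dUTP, rose by 3.21 (SE 0.37), Nme1, a nucleoside diphosphate kinase, by 2.01 (SE 0.17) and Dtymk, thymidylate kinase, by 1.63 (SE 0.18). The genes that fell were Samhd1, which degrades deoxynucleotides (log2 -3.27, SE 0.44), and Rrm2b, the ribonucleotide reductase subunit used outside S phase (-1.06, SE 0.20). All 12 chromatin assembly genes rose, with a median of 1.53. Those with the smallest p were Hells, a chromatin remodeller (2.54, SE 0.21), Nasp, a histone chaperone (2.07, SE 0.17), and Hat1, a histone acetyltransferase (1.55, SE 0.19).

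Of 18 mitosis genes 14 rose and 0 fell, at a median of 1.85, among them Bub1b, a spindle checkpoint kinase (2.34, SE 0.34), Cdc20, an activator of the anaphase-promoting complex (2.46, SE 0.38), and Ttk, a checkpoint kinase (2.18, SE 0.42). Without mutant 2 only 9 of them passed, beside 24.4% of all genes called higher in that fit. Among 5 S-phase cyclin and kinase genes 2 rose: Cdc25a, a phosphatase that activates Cdk2 (2.03, SE 0.18), and Cdk2 itself (1.01, SE 0.20). Ccne1 stood at 1.23 (SE 0.51), Ccna2 at 1.38 (SE 0.60) and Ccne2 at 1.05 (SE 0.69). Without wild type 2, 5 of 5 passed, beside 25.6% of all genes called higher in that fit. All mutants were above all wild types for 4 of the 5, beside 29.2% of all genes tested. DESeq2, limma-voom and limma on log2 CPM each called 4 of the 5 higher, beside 27.3% to 28.2% of all genes. Of 11 mitochondrial DNA replication genes 5 rose and 2 fell, counts not far from the shares of all genes, at a median of 0.51. Peo1, the mitochondrial helicase, rose by 1.03 (SE 0.15) and Mgme1, a mitochondrial nuclease, by 0.99 (SE 0.15), while Tk2, mitochondrial thymidine kinase, fell by 1.69 (SE 0.14) and Dguok, its deoxyguanosine counterpart, by 0.78 (SE 0.19). The differences between lists were not tested.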

How the data were processed

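Whole-spleen RNA libraries of 3 mutant and 4 wild-type mice were compared. The submitters' processing notes name build mm10, TopHat2 (2.0.12), Subread (1.4.6) with featureCounts, edgeR and bcl2fastq (2.17.1.14), without settings or strand use. Raw counts for each gene were deposited by the authors and served for all main tests, and their deposited CPM, scaled by TMM, served for 2 alternatives. Deposited starts count from 0 and were written from 1.

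The main test was edgeR 4.0.16 (R 4.3.3) quasi-likelihood on 7 libraries with TMM and filterByExpr, modelling group alone. CPM use those TMM factors, SE is the log2 fold change over the square root of F, and intervals are 95%. Ratios within a library were tested by exact permutation. Exon lengths came from GENCODE M21 transcripts with a RefSeq entry. The labels call each library a separate spleen and give no litter or batch, so the spread behind each p is that between these spleens. Simulated counts for this comparison had 200 of 15188 genes changed, and 14869 were tested. There the test called 7.07% of 2-fold and 59.2% of 4-fold changes, with 0 in the wrong direction. The spleen comparison made calls for a far larger share, 57.4%, and Benjamini-Hochberg adjustment is less strict when more genes pass. The simulated percentages therefore describe a setting with few changed genes and do not measure how many changes were missed here.

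The gene list, the other lists and the alternatives were chosen with earlier results of these data known. Values per library were given for the gene of each role with the smallest and the largest p, for genes not called and for Pcna. Others described singly (Orc3, Orc4, Gmnn, Pold2 and Rfc1) were chosen after their values were seen. Of each other list up to 3 genes with the smallest p and those called against the majority were named. The remaining S-phase cyclins, Pole3 and Pole4 were added after their values were seen. Alternatives used RLE factors, library size alone, removal of globin genes, no filter, DESeq2 1.42.0, limma 3.58.1 (voom, or log2 of deposited CPM plus 1 or 0.1), a block for replicate number, 0.01 as the adjusted p threshold, and libraries left out.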

Additional observations from a re-analysis of the deposited data

How the results depend on the processing

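Of the 41 replication genes called higher, 35 were called in each of 19 alternatives, and Orc4, Orc5, Rfc1, Rfc2, Fen1 and Gins3 were not called in at least 1. The number called higher stayed within 1.5 times of 41, and 0 genes were called lower in any alternative. Genes called lower over the whole table numbered 2276 without wild types 3 and 4 and 2924 at an adjusted p under 0.01, against 4390. With library size alone the median of all genes was -0.26 and 38.1% of calls were higher (49.7% with TMM). In that fit 40 replication genes and 20.8% of all genes tested were called higher. Mcm9 turned to -0.22 with library size alone and ranged from -0.0094 (without wild type 4, and -0.0090 without wild type 3) to 0.12 when 1 library was left out. The log2 difference of the Cdc6 to Gmnn ratio ranged from -0.10 to 0.39 and that of Prim1 to Prim2 from -0.29 to 0.078 when 1 library was left out. Deviations of same-numbered libraries correlated at 0.11, -0.22 and 0.13, and those of differently numbered libraries at -0.26 to 0.25. The labels do not say whether the numbers pair the spleens, and so few values cannot decide it. With the replicate number as a block 37 replication genes were called higher, beside 19.4% of all genes tested.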
